A study of Mus musculus with 18 samples.

Results

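Promoter accessibility was described for 36 genes whose products scaffold the postsynaptic side of the synapse, join it to the presynaptic side, release transmitter or carry calcium signals. The genes were taken by name from a table of 26065 promoter windows with 24166 gene names, and the window with the highest mean count stood for each. Together they had 52 windows: 24 genes had 1 and 12 had several. The measurement was ATAC-seq, an assay that counts the sites where a transposase could reach the DNA, here as reads from 1 kb upstream to 1 kb downstream of a start of transcription. All mice were C57BL/6J, aged 2 to 3 months, and gave 18 libraries in 8 groups. SOM+ nuclei, those of somatostatin neurons, were sorted on GFP from SOMH2B-GFP mice, labelled WT, that were fear-conditioned or controls. They came from the central amygdala (CeA) and from cortex, dissected as prefrontal cortex, with 2 libraries per region and treatment, of which replicate 1 was labelled male and replicate 2 female. Bulk nuclei were sorted on a DNA stain (NucBlue) with no GFP gate, from control mice. Their knockout (KO) of Erbb4, a receptor for neuregulins, was in SOM+ cells, while all nuclei of the tissue were measured. There were 3 KO libraries per region, labelled male, and 2 WT libraries per region, 1 labelled female and 1 male. The genotype field of the WT bulk libraries holds the KO entry too, so their group was read from the titles. Each library held 50000 nuclei sorted as technical replicates, so a p-value measures the spread between libraries, which may in part be technical. In SOM+ groups it also takes in mice of different sex: counts on the Y chromosome were 880 to 1330 in replicate 1 and 0 in replicate 2. Among KO libraries, KO 2 had 0 such counts and KO 1 and KO 3 had 400 to 675. SOM+ and bulk nuclei also differed in mouse line and in the sort, and these cannot be told apart from the cell type.

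At an excitatory synapse, receptors in the postsynaptic membrane are held by Dlg scaffolds (the PSD-95 family), which bind Dlgap proteins, which in turn bind Shank and, through it, Homer and the actin cytoskeleton. Neuroligins on that side bind neurexins on the axon, where SNARE proteins, synaptotagmin, complexins and synapsins hold and fuse the vesicles. Calcium that enters acts through the kinase CaMKII and the phosphatase calcineurin, and somatostatin neurons, which are inhibitory, use the same machinery for the excitatory input they receive and for their own release of GABA.

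The 4 promoters shown belong to the genes with the smallest p in 1 direction of a comparison below, among those with 1 window and 1 RefSeq promoter. Cplx1 led the genes higher in SOM+ than in bulk nuclei, Camk2d those lower, Syn1 the genes higher in CeA than in cortex SOM+ nuclei, and Baiap2 those lower. Each runs from 250 bases before to 50 bases after the RefSeq start, 5′ to 3′ on the gene's strand (build GRCm38.p6). Capitals mark matches on either strand to the Sp/KLF box GGGCGG in Cplx1, Camk2d and Baiap2, to the TATA box TATAAA in Baiap2, and to the cyclic AMP response element (CRE) TGACGTCA and the NRF1 core GCATGCGC in Syn1.
Cplx1: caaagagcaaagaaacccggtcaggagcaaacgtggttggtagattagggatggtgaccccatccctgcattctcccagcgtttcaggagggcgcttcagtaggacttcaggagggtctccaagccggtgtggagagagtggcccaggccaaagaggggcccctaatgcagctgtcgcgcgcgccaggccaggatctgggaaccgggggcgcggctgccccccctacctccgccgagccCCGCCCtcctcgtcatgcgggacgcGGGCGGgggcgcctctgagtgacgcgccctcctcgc
Camk2d: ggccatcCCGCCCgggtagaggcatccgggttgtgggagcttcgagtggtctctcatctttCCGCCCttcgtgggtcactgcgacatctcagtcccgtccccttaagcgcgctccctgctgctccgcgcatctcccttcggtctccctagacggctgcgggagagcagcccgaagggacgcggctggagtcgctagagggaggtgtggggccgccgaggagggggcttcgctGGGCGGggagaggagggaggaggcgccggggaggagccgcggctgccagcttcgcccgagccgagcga
Baiap2: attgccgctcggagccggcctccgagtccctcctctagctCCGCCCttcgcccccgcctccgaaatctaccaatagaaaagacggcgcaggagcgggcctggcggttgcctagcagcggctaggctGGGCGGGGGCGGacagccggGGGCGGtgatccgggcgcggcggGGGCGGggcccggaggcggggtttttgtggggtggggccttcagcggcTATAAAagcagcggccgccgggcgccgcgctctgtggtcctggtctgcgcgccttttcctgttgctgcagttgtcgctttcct
Syn1: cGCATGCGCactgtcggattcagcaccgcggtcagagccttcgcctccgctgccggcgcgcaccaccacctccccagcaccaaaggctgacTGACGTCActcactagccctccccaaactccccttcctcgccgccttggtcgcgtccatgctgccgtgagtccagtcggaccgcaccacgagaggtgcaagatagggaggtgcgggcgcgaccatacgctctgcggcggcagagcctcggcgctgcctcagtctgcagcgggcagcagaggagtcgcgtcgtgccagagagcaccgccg

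Their positions are chr5:108549978-108550277 (minus strand) for Cplx1, chr3:126596701-126597000 (plus strand) for Camk2d, chr11:119942842-119943141 (plus strand) for Baiap2 and chrX:20920869-20921168 (minus strand) for Syn1. RefSeq gave a promoter for 24 of the 36 genes, 41 promoters in all, and 11 genes had 1 window and 1 promoter. The Sp/KLF box was in 20 of the 41 promoters and in 35.7% of all 32851 promoters of that length; Baiap2 held 5 copies, Camk2d 3 and Cplx1 2. The full CRE was in the promoters of Prkcz and Syn1 and in 1.79% of all, and its shorter form TGACG, which every full CRE contains, in 10 of 41 and 20.8%. The NRF1 core was found in Dlgap4 and Syn1 (2.71% of all) and the TATA box in 4 promoters (13.6% of all), those of Baiap2, Dlg1, Dlg2 and Homer2. Also searched on both strands were the Egr box GCGTGGGCG (1 promoter, that of Shank3; 0.612% of all), the E box CACGTG (3; 7.15%), the AP-1 site TGANTCA (1; 7.81%) and the RE1 core AGCACCNNGGACAG (0; 0.0517%). The median GC content was 68.7% over the 11 promoters and 56.3% over the 14247 genes that met the same condition. Which of these starts an mm9 window was built on is not given in the sources used here, so a match describes the letters and no binding.

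The libraries held 2648959 to 14668694 promoter counts, and the deepest were those of cortex SOM+ nuclei (9452310 to 14668694). Enrichment, the ratio of median levels between 81 promoters of ribosomal proteins and 1099 of olfactory receptors, was 53.8 to 73.6 in cortex SOM+ libraries, 17.4 to 35.3 in CeA SOM+, 10.3 to 19.1 in CeA bulk and 9.73 to 14.3 in cortex bulk. Levels below are in CPM, the count divided by the library's total and its TMM factor. Summed over 9 GABAergic markers the level was 586 to 692 CPM in CeA SOM+ nuclei and 448 to 659 in CeA bulk, and 676 to 750 in cortex SOM+ against 181 to 217 in cortex bulk. The 13 glutamatergic markers summed to 210 to 219 and 267 to 338 CPM in CeA, and to 269 to 328 and 592 to 748 in cortex, in SOM+ and bulk nuclei in turn. Glial sums were lower in SOM+ nuclei for 10 astrocyte markers (113 to 167 against 209 to 338) and 14 oligodendrocyte markers (177 to 199 against 296 to 446), no marker of any list had 0 counts over a set of libraries, and 11 microglia markers overlapped (67.7 to 85.5 against 72.9 to 130.0), as did 10 vascular ones. The 13 somatostatin markers summed to 520 to 580 CPM in cortex SOM+ nuclei and 274 to 407 in cortex bulk, but to 253 to 272 in CeA SOM+ and 263 to 319 in CeA bulk, and the Sst promoter itself stood at 18.2 ± 6.19 CPM in SOM+ control and 18.2 ± 3.75 in bulk WT libraries (SD, n = 4 each). The Erbb4 promoter was at 34.2 ± 6.05 CPM in KO (n = 6) and 38.0 ± 5.43 in WT bulk libraries (n = 4), a log2 difference of -0.27 ± 0.19 (SE, adjusted p = 1.0, edgeR with the labelled sex as a term), and a window at the promoter checks nothing where the deletion lies elsewhere. In 4 bulk libraries the counts over 15 Y-linked windows went against the labelled sex: CeA KO 2 and cortex KO 2, labelled male, had 0, and CeA WT 1 and cortex WT 1, labelled female, had 285 and 683. Results that use bulk libraries are therefore also given without these 4. That leaves WT 2 as the only WT library of each region, so the conflict of labels and the loss of replication cannot be told apart there.

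The synapse genes had well covered promoters, with 28 to 2104 counts per library, and all 36 could be tested in every comparison. Per kb of window their median level was 26.1 CPM against 9.78 over all windows, and 32 of 36 lay above that median. Of the 8 group means per gene, the highest was in a cortex SOM+ group for 24 genes, in a bulk group for 9 and in a CeA SOM+ group for 3. The lowest was in a bulk group for 28 and in a cortex SOM+ group for 8. The same counts were not made over all windows, so they do not set the synapse genes apart. The ratio of the highest to the lowest group mean ran from 1.41 to 4.14, with a median of 2.1. At the bottom of the range of levels, Nlgn2 and Nlgn3, the neuroligin of inhibitory synapses and one of both kinds, stayed between 5.47 and 18.7 CPM. Ppp3ca, the alpha catalytic subunit of calcineurin, reached 362 CPM in cortex KO 3. In the heat map of group means, cortex SOM+ nuclei form the column with most contrast, red for Baiap2, Dlgap3 and Cplx1 and blue for Camk2d, Syt1 and Nrxn3.

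**Figure D1:**
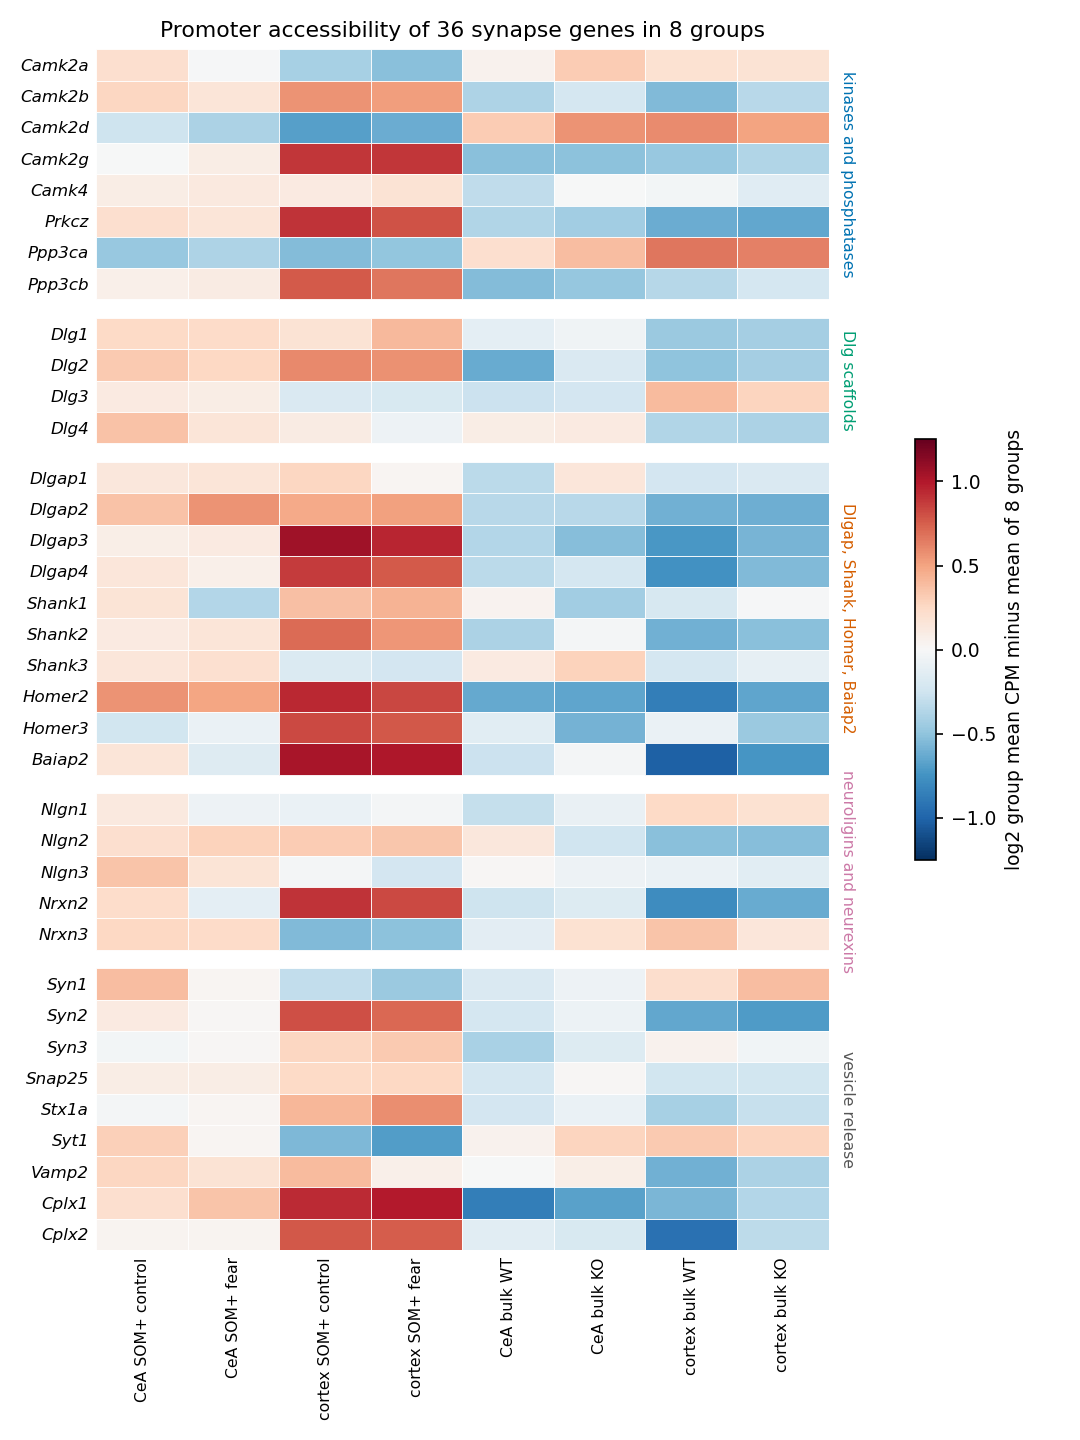
Level of the 36 promoters in the 8 groups, as the log2 of the group mean CPM minus the mean of the 8 log2 values of the gene (colour scale, red high and blue low). Rows are genes in 5 role groups, and columns are groups of 2 or 3 libraries. The 2 cortex SOM+ columns hold the highest group mean of 24 genes, a count not made over all windows.

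The first comparison set SOM+ nuclei of control mice against bulk nuclei of WT mice. Most of these synaptic promoters were more accessible in SOM+ nuclei: averaged over the regions, 21 of 36 were higher and 3 lower at an adjusted p under 0.05 (edgeR quasi-likelihood test, Benjamini-Hochberg over 25246 windows). Of all windows, 30.6% were called higher and 30.6% lower (61.1% in either direction). The median log2 difference was 0.50 over the 36 and -0.07 over all windows. Well covered windows as such ran higher in SOM+ nuclei: of the 13032 windows above the median level, 50.7% were higher and 23.7% lower, with a median of 0.36, and the 32 synapse genes among them had 21 and 3 calls and a median of 0.57. Enrichment and depth were highest in cortex SOM+ libraries and their part in these differences was not tested. Across 14060 genes the correlation of the difference with GC content of the RefSeq promoter was r = 0.415 (Pearson's), and across the 11 synapse genes r = -0.317; genes are not independent replicates, and no p is given. In bulk nuclei, fewer cells of a type and less accessibility per cell cannot be told apart. With libraries scaled by their total counts, the median over all windows was -0.27 in place of -0.07 and 15 of the 36 were higher and 5 lower; cyclic loess with limma gave 16 and 9. No gene called here changed direction under either, under RLE scaling or with DESeq2. Without the 4 libraries whose Y-linked counts went against the label, 16 were higher and 2 lower.

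Among the 8 kinases and phosphatases, 4 were higher in SOM+ nuclei and 2 lower, shares near the 50.7% and 23.7% of windows above the median level. Subunits of the same enzyme went opposite ways. Camk2b and Camk2g, 2 of the 4 CaMKII subunits, were higher (log2 difference 0.88 ± 0.15 and 0.95 ± 0.15, SE; adjusted p = 2e-06 and 1.12e-06, edgeR), while Camk2d was lower. Its level was 88.7 and 103 CPM in CeA SOM+ control libraries and 75.7 and 66.4 in cortex ones, against 137 and 149 in CeA WT and 144 in cortex WT 1, with cortex WT 2 the highest of the 8. All SOM+ values lay under all WT values, and the log2 difference was -0.92 ± 0.17 (83.4 ± 15.8 against 157 ± 28.8 CPM, SD, n = 4 each; adjusted p = 1.3e-05, edgeR). Camk2a, the subunit most used in excitatory neurons of the forebrain, differed by -0.21 ± 0.14 (adjusted p = 0.185, edgeR). Its other window, given below, was called lower. The 2 catalytic subunits of calcineurin also went opposite ways. Ppp3ca was at 128 and 122 CPM in CeA SOM+ control, 135 and 103 in cortex SOM+ control, 177 and 224 in CeA WT and 230.4 and 323 in cortex WT libraries. The groups did not overlap, and the log2 difference was -0.94 ± 0.16 (adjusted p = 3.27e-06). Ppp3cb, which shares reads with the overlapping entry 1810062O18Rik, was higher by 0.87 ± 0.14 (adjusted p = 1.36e-06). Prkcz, an atypical protein kinase C, was at 44.8 and 60.1 CPM in CeA and 84.4 and 84.7 in cortex SOM+ control libraries and between 28.2 and 38.1 in the 4 WT libraries, a log2 difference of 1.06 ± 0.15 (adjusted p = 2.52e-07). Camk4, a nuclear kinase of the same calcium pathway, was not called (0.27 ± 0.14, adjusted p = 0.0879).

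Of the 10 Dlgap, Shank, Homer and Baiap2 genes, 8 were higher and 0 lower, with a median log2 difference of 0.89. Of windows above the median level, 50.7% were higher and 23.7% lower. Homer2, an adaptor that ties metabotropic glutamate receptors to Shank, had the smallest p of all 36. In SOM+ control libraries it stood at 74.3 and 62.5 CPM in CeA and 94.8 and 84.2 in cortex, and in WT libraries at 29.9 and 29.5 in CeA and 28.6 and 22.4 in cortex. Every SOM+ library, fear-conditioned ones included, was above every bulk library, whose highest was 33.9, and the log2 difference was 1.496 ± 0.15 (78.9 ± 13.8 against 27.6 ± 3.53 CPM, SD, n = 4 each; adjusted p = 8.31e-11, edgeR). Its window is chr7:88850812-88852811 (mm9). Baiap2 encodes IRSp53, a scaffold that shapes actin in spines, at chr11:119803406-119805405. It measured 80.8 and 109 CPM in CeA and 172 and 175 in cortex SOM+ control libraries, 71.0 and 69.6 in CeA WT and 47.7 and 36.1 in cortex WT. The SOM+ values were all above the WT values, by a log2 difference of 1.24 ± 0.14 (adjusted p = 1.8e-09), and the spread within SOM+ nuclei was one of region. Dlgap3 and Dlgap4 were higher by 1.10 ± 0.16 and 1.06 ± 0.15 (adjusted p = 2.96e-07 and 1.16e-07), with the Dlgap4 window shared with the entry 4930405A21Rik, and Dlgap1 by 0.50 ± 0.16 and Dlgap2 by 0.86 ± 0.17. Homer3, the paralog of Homer2, was higher by 0.42 ± 0.18 with overlap. Shank2 was higher by 0.91 ± 0.15 (adjusted p = 2.39e-06), whereas Shank1 (0.36 ± 0.22) and Shank3 (0.03 ± 0.14) were not called. Of the 4 Dlg genes, 2 were higher: Dlg2 (PSD-93) by 1.04 ± 0.18 and Dlg1 (SAP97) by 0.51 ± 0.16, the latter with libraries that overlapped. Dlg4, which encodes PSD-95, differed by 0.36 ± 0.21 and Dlg3 (SAP102) by -0.10 ± 0.16, neither of them called. The other Dlg3 windows, given below, were lower. The calls of Dlg1, Dlgap1 and Homer3 ended under total count scaling and under cyclic loess.

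**Figure D2:**
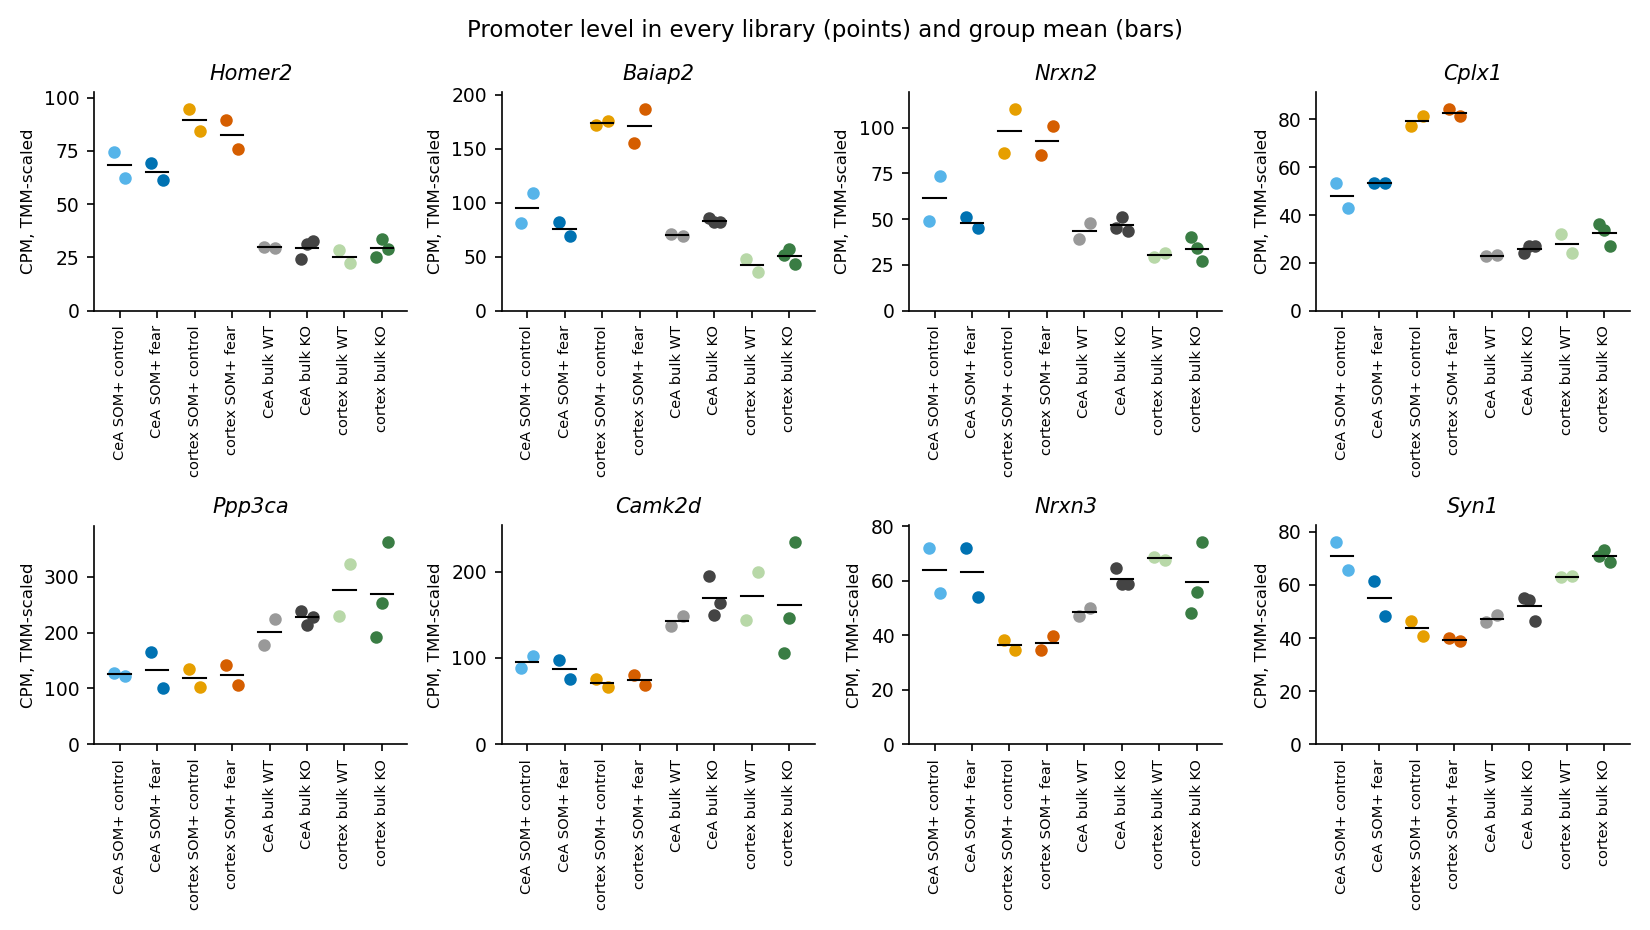
Level of 8 promoters (vertical axis, TMM-scaled CPM, from 0) in each library (points) of the 8 groups, with the group mean as a bar. Every SOM+ library lies above every bulk library for Homer2 and Cplx1 and under every bulk library for Ppp3ca, and for Nrxn3 the cortex SOM+ libraries, at 34.7 to 39.8, are the lowest.

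Adhesion genes gave 1 call among 5, where 50.7% of windows above the median level were higher and 23.7% lower. Nrxn2, a neurexin of the axon membrane, was at 49.1 and 73.6 CPM in CeA and 86.0 and 110.2 in cortex SOM+ control libraries, against 39.1 and 48.1 in CeA WT and 29.2 and 31.7 in cortex WT. No SOM+ control library fell to the WT range, although the lower CeA one nearly did, and the log2 difference was 1.08 ± 0.15 (adjusted p = 1.18e-07, edgeR). Nrxn3, its paralog, differed by -0.26 ± 0.14 (adjusted p = 0.122), with Nlgn1 at 0.04 ± 0.15, Nlgn2 at 0.48 ± 0.23 and Nlgn3 at 0.21 ± 0.21. Of 9 genes of vesicle release, 6 were higher and 1 lower, beside the same 50.7% and 23.7% of windows above the median level. Cplx1, a complexin that clamps the SNARE complex until calcium arrives, was at 53.2 and 43.1 CPM in CeA and 77.3 and 81.6 in cortex SOM+ control libraries and at 22.7, 23.2, 31.9 and 24.3 in the WT libraries. It was higher by 1.29 ± 0.15 (63.8 ± 18.6 against 25.5 ± 4.30 CPM, SD, n = 4 each; adjusted p = 1.7e-09) without overlap. Cplx2 was higher by 0.94 ± 0.17, with overlap, and the synapsin Syn2, whose window overlaps the entry Gm17733, by 0.89 ± 0.14 (adjusted p = 1.14e-05 and 8.39e-07). The SNARE genes were higher by less: Snap25 by 0.40 ± 0.14, Stx1a by 0.52 ± 0.18 and Vamp2 by 0.62 ± 0.17, each with overlapping libraries. Each of these SNARE calls ended under total count scaling and under cyclic loess. Syt1, the calcium sensor of fast release, was lower by 0.32 on the log2 scale (-0.32 ± 0.14, adjusted p = 0.0448), again with overlap, and RLE scaling ended that call.

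In cortex and CeA apart, the signed difference between SOM+ and bulk nuclei was larger in cortex for 25 of the 36 genes, a count not made over all windows. In cortex 22 were higher and 7 lower, where 31.5% and 30.6% of all windows were (62.1% either way), and the median was 0.85 against -0.07. In CeA 7 were higher and 1 lower, where 13.7% and 9.58% of all windows were (23.2% either way), and the median was 0.39 against -0.06. Of windows above the median level, 49.3% were higher and 26.8% lower in cortex, where the 32 synapse genes among them gave 21 and 7, and 25.0% and 7.93% in CeA, where they gave 7 and 1, a share near that background. Cortex was also where enrichment and summed GABAergic and glutamatergic markers differed most between the nuclei; their part was not tested. Cyclic loess gave 14 higher and 9 lower in cortex, with Dlgap1 changing sign, and 3 and 2 in CeA, where total count scaling gave 4 and 2. Without the 4 libraries of conflicting sex label the counts were 17 and 6 in cortex and 3 and 0 in CeA. The CeA count moved with single libraries: it was 3 without CeA WT 1 or CeA WT 2, 4 without CeA SOM+ control 1, 5 without CeA SOM+ control 2 and 13 without cortex KO 3.

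Called the same way in both regions were 7 genes. Homer2 was 3.51-fold higher in cortex and 2.3-fold in CeA (log2 difference 1.80 ± 0.21 and 1.20 ± 0.21; adjusted p = 2.23e-09 and 8.42e-05), and Cplx1 gave 1.49 ± 0.20 and 1.08 ± 0.21. Dlg2 gave 1.10 ± 0.24 and 0.98 ± 0.26, Camk2b 1.11 ± 0.20 and 0.66 ± 0.21, Ppp3cb 1.13 ± 0.20 and 0.62 ± 0.20, and Dlgap2 1.05 ± 0.24 and 0.67 ± 0.24. Ppp3ca was the 1 gene lower in both (-1.21 ± 0.22 and -0.67 ± 0.22). Of these CeA calls, those of Homer2 and Cplx1 held without the 4 libraries of conflicting label, and those of Dlg2 (adjusted p = 0.152), Camk2b (0.237), Ppp3cb (0.212) and Ppp3ca (0.257) did not. Total count scaling and cyclic loess each ended the CeA calls of Camk2b and Dlgap2, and cyclic loess also that of Ppp3cb. In cortex, cyclic loess ended the calls of Dlg2 and Dlgap2. Dropping the sex term ended the CeA call of Ppp3ca (-0.67, adjusted p = 0.0656, edgeR), as did sex taken from Y-linked counts (-0.53, adjusted p = 0.132, edgeR). Leaving out single libraries also ended the CeA calls of Dlg2, Camk2b, Ppp3cb and Ppp3ca. Of the cortex calls, 21 had no counterpart in CeA, and for 14 of the 21 the difference between regions passed its own test. How many of all windows were called in both regions, or in cortex alone, was not counted. Of all windows 62.1% were called in cortex and 23.2% in CeA, so these counts do not set the synapse genes apart. Baiap2 was 4.14-fold higher in cortex SOM+ nuclei (173 ± 2.45 against 41.9 ± 8.21 CPM, SD, n = 2 each; log2 difference 2.06 ± 0.20, adjusted p = 1.03e-10) while in CeA it differed by 0.42 ± 0.20, which was not called. Lower in cortex SOM+ nuclei were Camk2d (-1.27 ± 0.24), Nrxn3 (-0.91 ± 0.20), Syt1 (-0.89 ± 0.20), Camk2a (-0.59 ± 0.20) and Dlg3 (-0.57 ± 0.22). Syn1, a synapsin on the X chromosome that tethers vesicles to actin, was called in both regions in opposite directions. It was at 76.1 and 65.5 CPM in CeA SOM+ control against 45.9 and 48.7 in CeA WT, and at 46.6 and 40.7 in cortex SOM+ control against 62.9 and 63.3 in cortex WT. Neither pair of groups overlapped, and the log2 differences were 0.58 ± 0.19 and -0.54 ± 0.18 (adjusted p = 0.0232 and 0.0111, edgeR). Both calls were lost without the 4 libraries, with values of 0.63 and -0.51. The CeA call was also lost under total count scaling (0.42, adjusted p = 0.0986, edgeR) and cyclic loess (0.32, adjusted p = 0.181, limma). It was lost too when any 1 of the CeA libraries compared was left out (0.53 to 0.63). The cortex call was lost without cortex SOM+ control 2 (-0.51) or cortex WT 1 (-0.45).

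**Figure D3:**
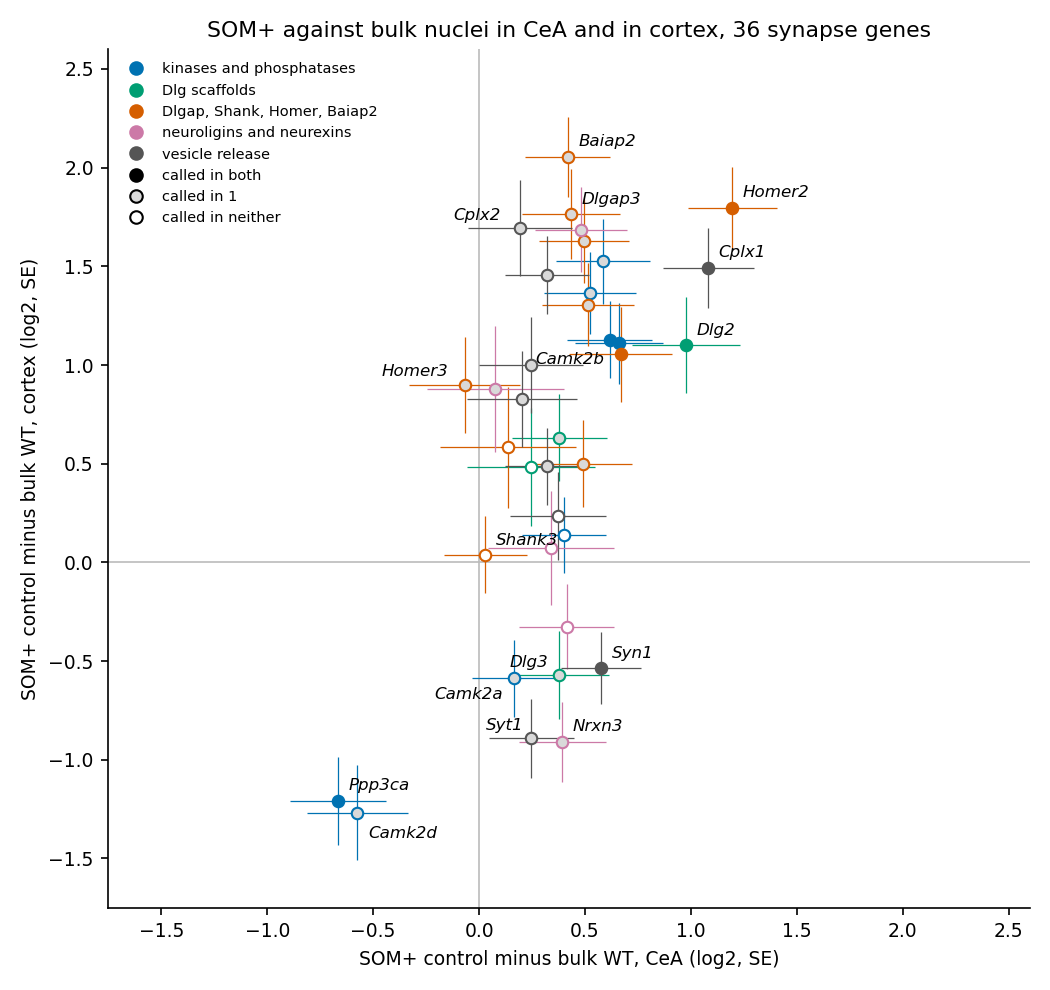
Log2 difference between SOM+ control and bulk WT nuclei in CeA (horizontal) and in cortex (vertical) for the 36 genes, with SE as bars and the role as colour. Filled points were called in both regions, grey ones in 1 and open ones in neither; Homer2 and Cplx1 stand at the upper right, Ppp3ca and Camk2d at the lower left, and Syn1 and Nrxn3 at the lower right.

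The comparison of CeA with cortex within SOM+ nuclei asked which promoters differ between somatostatin neurons of 2 brain regions. Among the genes lower in CeA were 6 of the 10 Dlgap, Shank, Homer and Baiap2 genes and both complexins, and among those higher were Nrxn3, Syt1, Syn1, Camk2a, Shank3 and Dlg3. In all, 7 of 36 were higher in CeA and 14 lower (edgeR over 25157 windows), where 21.1% and 27.1% of all windows were (48.3% either way), and the median was -0.18 against 0.04. Among windows above the median level, 17.5% were higher and 43.8% lower, with a median of -0.25, and the 32 synapse genes there gave 7 and 13 and a median of -0.25. The count of lower members is thus near that of windows of like level, and enrichment, 53.8 to 73.6 in cortex against 17.4 to 35.3 in CeA, moved with it; its part was not tested. Total count scaling, which moved the median of all windows to 0.26, gave 11 and 11 calls, and cyclic loess 10 and 11.

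Higher in CeA by most was Nrxn3, at 72.1, 55.5, 72.1 and 53.9 CPM in the CeA SOM+ libraries (control 1 and 2, fear 1 and 2) and 38.2, 34.7, 34.7 and 39.8 in the cortex ones. The groups stood apart by a log2 difference of 0.84 ± 0.15 (63.4 ± 10.1 against 36.9 ± 2.56 CPM, SD, n = 4 each; adjusted p = 1.09e-07, edgeR). Syt1 was at 95.4, 105, 89.9 and 76.3 CPM in CeA and 57.6, 53.1, 50.1 and 50.5 in cortex (0.84 ± 0.15, adjusted p = 1.82e-07). Syn1 was at 76.1, 65.5, 61.7 and 48.3 in CeA and 46.6, 40.7, 39.9 and 38.8 in cortex (0.64 ± 0.15, adjusted p = 6.33e-05), and its lowest CeA library was just above the highest cortex one. Camk2a followed at 0.61 ± 0.15 and Shank3, the scaffold whose loss causes Phelan-McDermid syndrome in people, at 0.43 ± 0.15 (adjusted p = 0.000224 and 0.00882). The Shank3 call was lost without CeA SOM+ fear 1 (0.35, adjusted p = 0.0535). Camk2d (0.37 ± 0.15) and Dlg3 (0.34 ± 0.15) were called with overlapping libraries.

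Lower in CeA were 6 of the 10 Dlgap, Shank, Homer and Baiap2 genes, where 43.8% of windows above the median level were. Baiap2 was at 80.8, 109, 82.4 and 69.1 CPM in the CeA SOM+ libraries and 172, 175, 155 and 187 in those of cortex, a log2 difference of -0.98 ± 0.16 (adjusted p = 1.19e-08, edgeR). Homer3 differed by -0.92 ± 0.16 (19.4 ± 2.91 against 37.7 ± 5.62 CPM). Dlgap3 (-0.84 ± 0.15), Dlgap4 (-0.66 ± 0.16), Shank2 (-0.45 ± 0.15) and Shank1 (-0.47 ± 0.18) completed the set, while Homer2 was not called (-0.31 ± 0.15, adjusted p = 0.07). The Shank1, Shank2 and Stx1a calls ended under total count scaling and under cyclic loess. Camk2g, Prkcz and Ppp3cb were lower by 0.79, 0.62 and 0.58 on the log2 scale, and Nrxn2 by 0.77. Of the release genes, Cplx2 was at 37.4 ± 6.56 CPM in CeA and 62.4 ± 5.64 in cortex (SD, n = 4 each; -0.67 ± 0.15, adjusted p = 3.6e-05), Syn2 differed by -0.65 ± 0.15, Cplx1 by -0.63 ± 0.15 and Stx1a by -0.47 ± 0.16.

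In bulk nuclei, KO and WT together, 5 of 36 were higher in CeA and 2 lower (edgeR over 25196 windows), where 6.9% and 9.98% of all windows were (16.9% either way), with a median of 0.13 against 0.03. Of windows above the median level, 9.47% were higher and 14.5% lower. Baiap2 was at 85.7, 82.0 and 81.8 CPM in CeA KO libraries, 71.0 and 69.6 in CeA WT, 51.4, 57.3 and 43.6 in cortex KO and 47.7 and 36.1 in cortex WT. Each CeA library was above each cortex library, by a log2 difference of 0.75 ± 0.13 (78.0 ± 7.23 against 47.2 ± 8.01 CPM, SD, n = 5 each; adjusted p = 0.00052). Syn2 was also higher in CeA without overlap (59.4 ± 7.98 against 40.5 ± 3.03 CPM; 0.54 ± 0.12, adjusted p = 0.0059), as was Shank3 (0.38 ± 0.13, adjusted p = 0.0458). The Shank3 call was lost with the replicate block (0.38, adjusted p = 0.0538), DESeq2 (0.37, adjusted p = 0.0615), RLE scaling (adjusted p = 0.05), 2000-base windows alone (adjusted p = 0.0809) and 8 of the 10 omissions of 1 library (adjusted p of 0.0804 to 0.322). With sex taken from Y-linked counts the Shank3 call was lost as well (0.38, adjusted p = 0.0599, edgeR). Nrxn2 (0.50 ± 0.14) and Vamp2 (0.54 ± 0.17) were called higher with overlapping libraries. Syn1 was lower in CeA, at 55.2, 54.3 and 46.4 CPM in KO and 45.9 and 48.7 in WT libraries, than in cortex, at 71.1, 73.0 and 68.6 in KO and 62.9 and 63.3 in WT. The groups did not overlap (-0.42 ± 0.12, adjusted p = 0.0217, edgeR), and Dlg3 gave -0.55 ± 0.15 with overlap. The Syn1 call was lost under total count scaling (-0.32, adjusted p = 0.0779, edgeR), without CeA KO 3 (-0.38) and without any single WT library (-0.36 to -0.49). The Syn2 call was lost without CeA WT 1 (0.46), CeA WT 2 (0.58) or cortex WT 1 (0.38). These calls rested on few libraries: 0 of the 36 were called without CeA WT 2, 1 without CeA WT 1 or without cortex WT 1, 2 without cortex WT 2, 4 without CeA KO 2 or without CeA KO 3, and 14 without cortex KO 1. Without CeA WT 2 the value of Baiap2 was 0.60 (adjusted p = 0.0541). Without the 4 libraries of conflicting sex label 1 call remained, and total count scaling gave 7 higher and 1 lower.

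These 2 comparisons share no library, whereas the difference between them shares its libraries with the comparisons of SOM+ and bulk nuclei above. Called in both were 6 genes, 5 of them in opposite directions: Baiap2, Nrxn2 and Syn2 were lower in CeA in SOM+ nuclei and higher in bulk nuclei, and Syn1 and Dlg3 the reverse. Shank3 was called higher in CeA in both. Losses of its calls, and of the bulk calls of Baiap2, Syn2 and Syn1, are given above. A further 15 were called in SOM+ nuclei and not in bulk, Vamp2 in bulk and not in SOM+, and 14 in neither. The share of all windows with each such pair of calls was not counted, so these counts do not set the synapse genes apart. The difference of the 2 regional differences, fitted on SOM+ control and bulk WT libraries, was itself called for 15 of 36, 5 higher and 10 lower, where 9.46% and 15.2% of all windows were (24.7% either way), with a median of -0.40 against -0.03. Among windows above the median level 14.0% were higher and 24.6% lower, where the 32 synapse genes gave 5 and 10. The 15 took in all 5 genes of opposite direction and 10 of the 15 called in SOM+ nuclei and not in bulk. It was lowest for Baiap2 (-1.64 ± 0.28, adjusted p = 8.33e-05, edgeR), Cplx2 (-1.50 ± 0.34) and Dlgap3 (-1.33 ± 0.32), and highest for Nrxn3 (1.30 ± 0.29, adjusted p = 0.0011), Syt1 (1.14 ± 0.28) and Syn1 (1.11 ± 0.26). Total count scaling gave 8 higher and 8 lower and cyclic loess 6 and 6; the count was 9 without CeA WT 1 or CeA WT 2, and 7 (2 higher, 5 lower) without the 4 libraries of conflicting label.

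**Figure D4:**
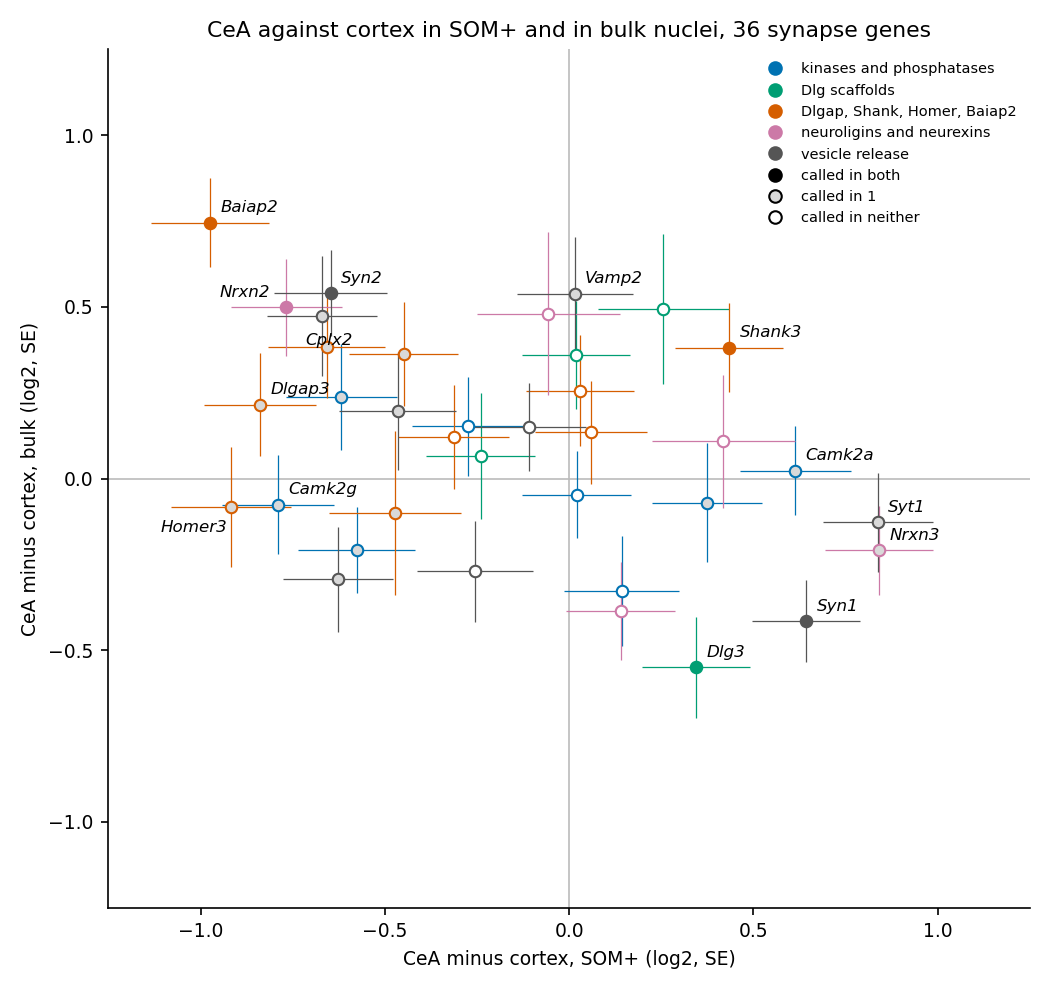
Log2 difference between CeA and cortex in SOM+ nuclei (horizontal) and in bulk nuclei (vertical) for the 36 genes, with SE as bars and the role as colour. Filled points were called in both, grey in 1 and open in neither; Baiap2, Nrxn2 and Syn2 lie at the upper left, Syn1 and Dlg3 at the lower right, and Shank3 is the filled point at the upper right.

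Several of the 12 genes with more than 1 window behaved differently at each. Homer2 has a second window at chr7:88836852-88838851, where it was at 8.77 CPM in CeA and 13.4 in cortex SOM+ control nuclei, and there the difference between SOM+ and bulk nuclei was 0.40 ± 0.25 (adjusted p = 0.17) against 1.496 at the first. At the second window of Dlgap3, chr4:126849124-126851123, CeA and cortex SOM+ nuclei differed by 0.01 ± 0.15 against -0.84 at chr4:126845448-126847447, while both windows were higher in SOM+ than in bulk nuclei (1.24 ± 0.17 and 1.10 ± 0.16). The 2 windows of Dlgap4 gave regional differences of -0.06 ± 0.15 and -0.66 ± 0.16 in SOM+ nuclei, and sort differences of 1.48 ± 0.15 and 1.06 ± 0.15. Dlg2 was higher in CeA SOM+ nuclei at its window of second rank, chr7:99382480-99384479 (0.67 ± 0.15, adjusted p = 6.98e-05), and not at its first, chr7:98238296-98240295 (-0.24 ± 0.15). Nlgn1, the neuroligin of excitatory synapses, was likewise not called at its first window (0.14 ± 0.15) and was higher in CeA at the second, chr3:26229832-26231831 (0.68 ± 0.15, adjusted p = 2.35e-05). Of the 3 Nrxn3 windows, the one with the highest count, chr12:91049923-91051922, gave the regional difference of 0.84, the next 0.38 ± 0.16 and the third -0.19 ± 0.24. Prkcz gave 1.06 ± 0.15 and 0.41 ± 0.20 between SOM+ and bulk nuclei at its 2 windows, the latter not called. At all 3 windows of Dlgap1 SOM+ nuclei were higher, by 0.50 to 0.61.

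Fear conditioning was compared with control within SOM+ nuclei to ask whether these promoters change with learning. None of the 36 was called by edgeR in CeA, in cortex, over both or as a difference between regions, none had an unadjusted p under 0.05, and DESeq2 called 0. The percent of all windows called was 0.0 in each, and 2.38%, 1.14%, 2.11% and 1.47% had an unadjusted p under 0.05. The median log2 difference of the 36 was 0.01 in CeA, -0.02 in cortex and -0.02 over both, with SEs of single genes of 0.15 to 0.19 for the last. Without CeA SOM+ fear 1 the medians were -0.25 in CeA and -0.12 over both, and leaving out other libraries moved them between -0.09 and 0.05. Values over both regions ran from -0.24 for Syn1 to 0.14 for Dlgap2. Syn1 was at 76.1 and 65.5 CPM in control and 61.7 and 48.3 in fear libraries of CeA, which did not overlap, and at 46.6 and 40.7 against 39.9 and 38.8 in cortex (-0.24 ± 0.15, 95% interval -0.53 to 0.05). Shank1 in CeA had the smallest p in that region, at 16.5 and 22.4 CPM in control against 13.2 and 13.5 in fear libraries (-0.50 ± 0.27, interval -1.03 to 0.03; adjusted p = 1.0, edgeR). In cortex Vamp2 gave -0.31 ± 0.21, Dlgap1 -0.24 ± 0.21 and Dlg1 0.24 ± 0.20. The intervals over both regions for Nrxn2 (-0.49 to 0.10) and Syt1 (-0.48 to 0.11) took in 0, as did those of all 36.

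KO of Erbb4 in SOM+ cells was compared with WT in bulk nuclei, with the labelled sex as a term. Only WT 1 of each region was labelled female, so that term rested on WT 1 against WT 2. Averaged over the regions, the fitted difference was therefore in effect KO against WT 2. Both WT 1 libraries had Y-linked counts, so the term need not describe sex. Here too edgeR called none of the 36 in CeA, cortex, over both or between regions, DESeq2 called 0, and 0.0% of all windows were called, while 2.96%, 3.27%, 3.46% and 2.34% had an unadjusted p under 0.05. Such a p was reached by 0 members in CeA, and by 1 in each of the others: Cplx2 in cortex, Baiap2 over both and Nrxn3 between regions. Baiap2 was at 85.7, 82.0 and 81.8 CPM in KO and 71.0 and 69.6 in WT libraries of CeA, which did not overlap, and at 51.4, 57.3 and 43.6 against 47.7 and 36.1 in cortex, which did (0.39 ± 0.17, adjusted p = 1.0, edgeR). Cplx2 in cortex was at 30.5, 34.4 and 22.7 CPM in KO and 23.8 and 14.6 in WT libraries (0.74 ± 0.30, adjusted p = 0.945). Without cortex KO 3, the KO library inside the WT range, it was called (0.88, adjusted p = 0.0332), the 1 call among the 36 when single libraries were left out, while over both regions its value of 0.42 ± 0.23 turned to -0.07 without cortex WT 2. Nrxn3 differed between regions by 0.55 ± 0.26 (adjusted p = 0.968), from 0.33 ± 0.21 in CeA. Dlgap1 had the smallest p in CeA, at 40.8, 30.2 and 33.6 CPM in KO against 24.7 and 24.9 in WT (0.48 ± 0.25, adjusted p = 0.999). The medians of the 36 were 0.13 in CeA, 0.08 in cortex and 0.09 over both, against 0.02, 0.02 and 0.01 over all windows. Their sign rested on single libraries: without cortex WT 2 they were -0.09 in cortex and -0.03 over both, without cortex KO 1 -0.01 in cortex, and with total count scaling 0.20 in cortex. Without the 4 libraries of conflicting sex label none was called, and the medians were 0.13, 0.04 and 0.07. Dropping the sex term instead also gave no call, with medians of 0.16, 0.05 and 0.10. With the term and all libraries, values over both regions ran from -0.40 for Homer3 to 0.42 for Cplx2. SEs over both regions were 0.15 to 0.32, and how much of the nuclei measured came from SOM+ cells, the ones that lack Erbb4, is not given in the sources used here.

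**Figure D5:**
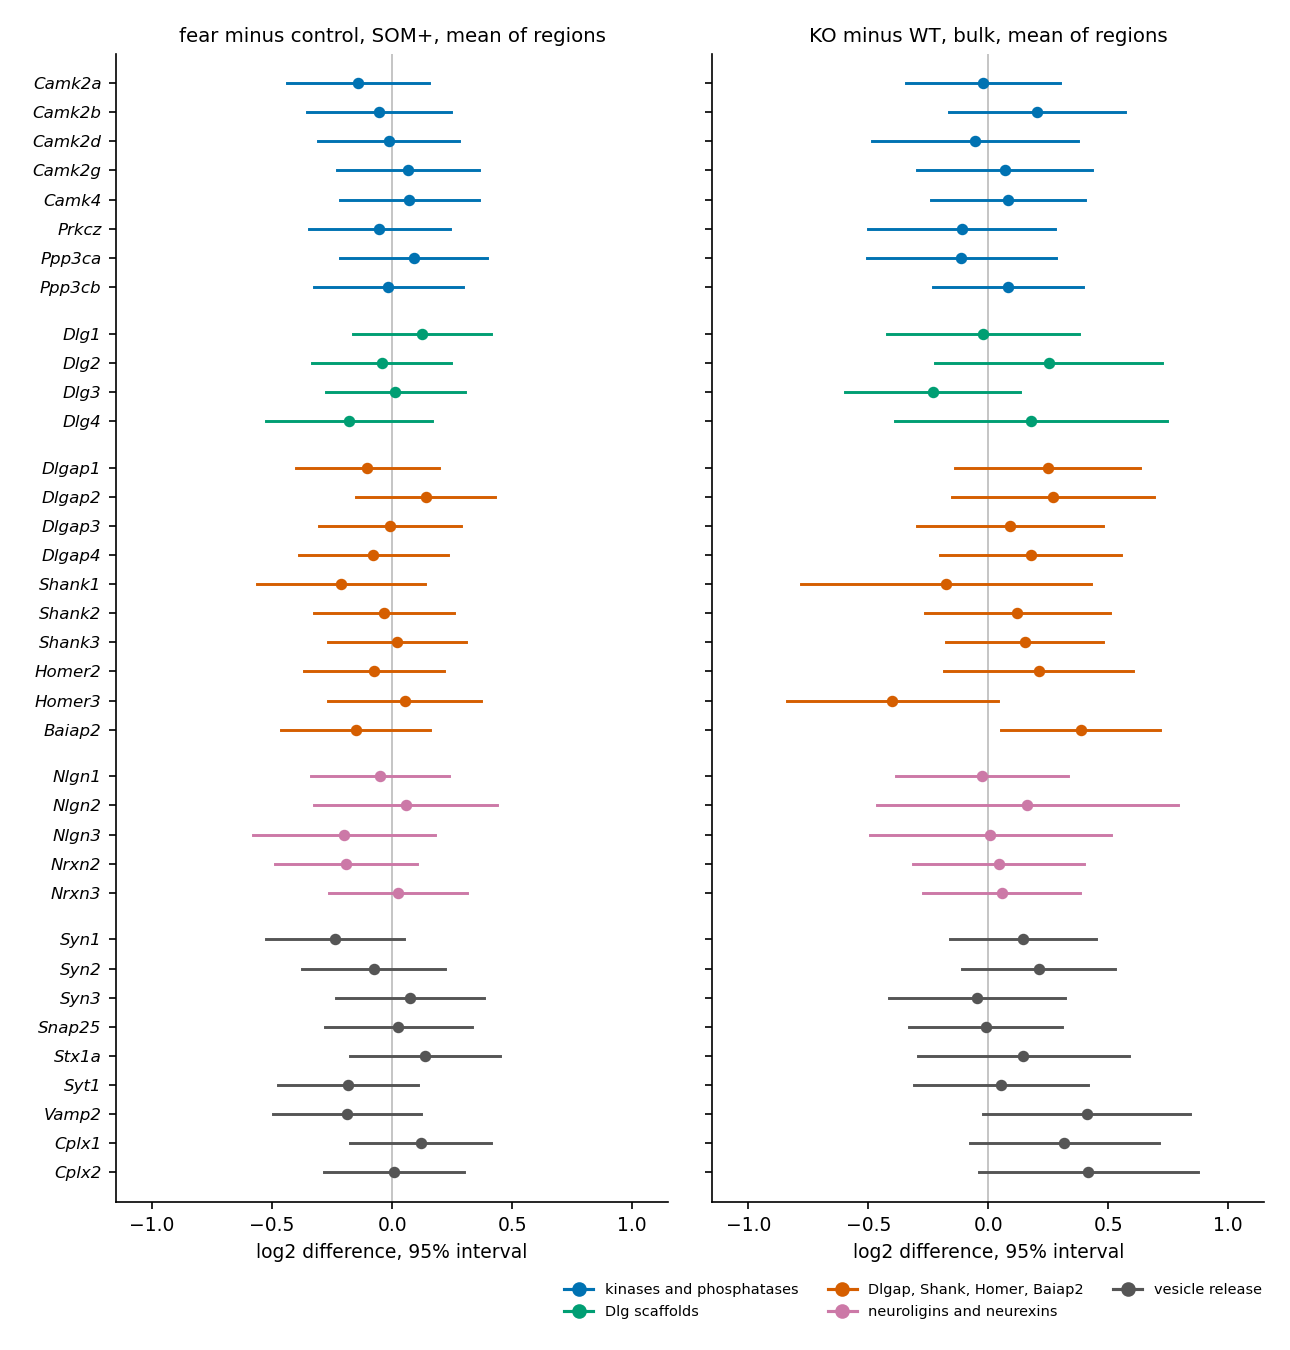
Log2 difference of each of the 36 promoters (rows, coloured by role) between fear and control in SOM+ nuclei (left) and between KO and WT in bulk nuclei (right), both as the mean of CeA and cortex, with 95% intervals as lines. All intervals on the left include 0, and on the right all but that of Baiap2 (0.05 to 0.72) do.

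A wider list of 124 other synaptic genes, 123 of them in the table and tested, was set beside these counts. Between SOM+ and bulk nuclei 53 were higher and 35 lower with a median of 0.26, where 30.6% and 30.6% of all windows were. Between CeA and cortex, SOM+ nuclei gave 31 and 47 (median -0.04; 21.1% and 27.1% of all windows) and bulk nuclei 16 and 23 (-0.08; 6.9% and 9.98%), and with fear or KO edgeR called 0, with unadjusted p under 0.05 for 0 to 5 genes a comparison. By the smallest p, Snap23 (1.68 ± 0.15), a SNAP25 relative, Camkk2 (1.37 ± 0.14), the kinase that activates Camk4, and Syt12 (1.55 ± 0.18) were higher in SOM+ nuclei, and Cadps2 (-1.80 ± 0.17), Cbln2 (-1.91 ± 0.18) and Il1rap (-1.47 ± 0.16) lower. Ptprd, a receptor phosphatase that organises synapses, was 7.19-fold higher in CeA than in cortex SOM+ nuclei (146 against 20.3 CPM; 2.89 ± 0.16, adjusted p = 3.29e-67, edgeR), where the 36 ran from -0.98 to 0.84. Synpr, a synaptic vesicle protein, was lower in CeA in both SOM+ (-2.17 ± 0.18) and bulk nuclei (-1.39 ± 0.18).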

How the data were processed

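The table the authors deposited holds whole-number read counts of 18 ATAC-seq libraries for 26728 promoter entries of build mm9. The submitters' processing notes name Bowtie2, MACS2, Picard 1.88, Trimmomatic 0.32 and bcl2fastq 2.16.0.10, with no order or role. How reads were counted, shifted for the transposase, assigned to a strand or cleared of duplicates is not given there. Of the entries, 663 that repeated a window were left out, and 26065 windows were kept, 24630 of them 2000 bases wide and 1435 wider. Coordinates are 1-based. All 18 columns matched a library by name.

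The test was that of edgeR 4.0.16 under R 4.3.3 (TMM scaling, filterByExpr with a minimum count of 10 and a minimum total of 15, quasi-likelihood F tests, Benjamini-Hochberg over all windows of a comparison), and an adjusted p under 0.05 was a call. SOM+ comparisons used the 8 SOM+ libraries (25157 windows, 4 residual degrees of freedom), bulk comparisons the 10 bulk libraries with the labelled sex as a term (25196, 5), and comparisons of the 2 kinds of nuclei all 18 with that term (25246, 9). Values are log2 difference ± SE, 95% intervals are normal ones from the SE, and levels are mean ± SD. Libraries held 2648959 to 14668694 counts, and the SEs carry the precision this gives. The 36 genes, the wider list and the marker lists of 7 cell types were chosen with earlier results of these data known, so no list is tested and no pattern supports another. Named with full statistics are the called genes without overlap of libraries that have the smallest p, up to 6 a direction, the 3 with the smallest p for fear and KO, and up to 3 per direction of the wider list; other genes are set beside their paralogs. Alternatives were RLE and total count scaling, cyclic loess with limma 3.58.1, DESeq2 1.42.0, no filter, no sex term, 2000-base windows alone, the compared groups alone, a replicate block, the window of second rank, each library left out and, added after seeing the data, sex from Y-linked counts and leaving out the 4 libraries where it went against the label.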

Additional observations from a re-analysis of the deposited data

Results flagged for a closer look

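For 15 genes the difference between CeA and cortex was not the same in SOM+ control as in bulk WT nuclei, by the edgeR test of that difference itself at an adjusted p under 0.05. The same quantity is the SOM+ to bulk difference in CeA minus that in cortex, on the log2 scale. Below 0 were Baiap2 (-1.637), Cplx2 (-1.499), Dlgap3 (-1.331), Nrxn2 (-1.203), Syn2 (-1.135), Dlgap4 (-1.134), Homer3 (-0.9669), Prkcz (-0.9408), Camk2g (-0.8422) and Shank2 (-0.792): scaffolds, a complexin, a synapsin, a neurexin and kinases whose promoters were highest in cortex SOM+ nuclei. Above 0 were Nrxn3 (1.302), Syt1 (1.139), Syn1 (1.114), Dlg3 (0.949) and Camk2a (0.7507). Of all windows, 9.46% were called above 0 and 15.2% below. Of windows above the median level, 14.0% and 24.6% were, and the 32 synapse genes among them gave 5 and 10. Camk2a and Dlg3 were the least firm. With sex taken from Y-linked counts Camk2a was not called (0.76, adjusted p = 0.0536, edgeR). The Camk2a call was lost under 10 of the 18 omissions of 1 library (adjusted p of 0.055 to 0.253), RLE scaling (0.0504), no sex term (0.0591) and at the window of second rank (0.126). The Dlg3 call was lost under 5 omissions (0.0601 to 0.186), of CeA SOM+ control 2, CeA WT 1, CeA WT 2, cortex SOM+ control 1 and cortex WT 2. Syn2 was lost without CeA WT 1 (-0.81, adjusted p = 0.0793) and Nrxn2 without CeA SOM+ control 1 (-0.94, adjusted p = 0.0508). RLE scaling also ended the call of Shank2, total count scaling those of Homer3 and Shank2, and cyclic loess those of Camk2g, Homer3, Prkcz and Shank2. The values of these 4 genes without single libraries are not given here. At their windows of second rank Nrxn3, Dlgap3 and Dlgap4 were not called (adjusted p = 0.0892, 0.555 and 0.0751, edgeR). Neither were Dlg3, Prkcz and Shank2 at theirs (adjusted p = 0.113, 0.413 and 0.377, edgeR). With Camk2a, these are all the flagged genes that have several windows. Without the 4 libraries of conflicting sex label Syn2, Syt1, Dlg3 and Camk2a were not called (adjusted p = 0.149, 0.0861, 0.0787 and 0.135). Enrichment and marker sums differed between the same groups, and their part was not tested.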

How the results depend on the processing

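Counts of the 36 genes called stayed within 1.5 times the reported value under the other scalings, DESeq2, no filter, no sex term, 2000-base windows alone and a fit on the compared groups alone, except that cyclic loess gave 5 in CeA between SOM+ and bulk nuclei, where 8 were reported. The window of second rank gave 8 for the difference between regions of the 2 kinds of nuclei. Without the libraries whose Y-linked counts went against the label, the counts were 1 between regions in bulk nuclei, 3 between SOM+ and bulk nuclei in CeA and 7 for the difference between regions. Leaving out each library gave 0 to 14 calls between regions in bulk nuclei, 3 to 13 between SOM+ and bulk nuclei in CeA, 9 to 17 for the difference between regions (17 without cortex KO 3) and 0 to 1 for KO in cortex. It gave 19 to 22 between regions in SOM+ nuclei, 19 to 25 between SOM+ and bulk nuclei over both regions, 22 to 30 in cortex and 0 for fear and the other KO comparisons. The value for Cplx2 with KO over both regions ran from -0.06627 to 0.876 over these omissions. At the window of second rank the sign changed for Dlg1 with fear in cortex (-0.03464), Nrxn3 with KO in CeA (-0.19) and between regions (-0.15), Dlgap3 between regions in SOM+ nuclei (0.005081) and Homer2 between SOM+ and bulk nuclei in CeA (-0.14); a different window was measured there, and the cause of the other changes was not tested. With the replicate block the counts were 23 between regions in SOM+ nuclei, 6 in bulk, 24 between SOM+ and bulk nuclei over both regions, 10 in CeA, 29 in cortex, 15 for the difference and 0 for fear and KO, so that no count moved by over 1.5 times. Same-numbered libraries share a number and no stated mouse: their deviations correlated at -0.01 between CeA SOM+ control and fear, 0.19 in cortex, -0.20 and -0.33 between CeA KO and WT, and 0.41 and -0.22 in cortex. Between regions they were 0.13 for SOM+ control, 0.04 for SOM+ fear, 0.38 for WT and -0.19, 0.26 and 0.02 for KO; KO 2 and WT 1 went against the labelled sex in both regions. The block ended the bulk Shank3 call. The main window of Dlgap4 is wider than 2000 bases and has no value there, and a comparison that takes in all groups of its fit has none on the compared groups alone. The number of libraries per group, 2 or 3, limits the precision.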
